A study of Mus musculus with 4 samples.

Results

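Autophagy machinery genes were followed in mouse embryonic fibroblasts (MEF cells), connective tissue cells cultured from mouse embryos, with and without exposure to the plant isoflavone genistein. The 36 genes were taken by symbol from a list chosen with earlier results of these data known. They are 36 of the 47937 genes in the deposited count table. They were sorted by role into initiation, lipid kinase, lipid effector and transfer, conjugation, LC3 and GABARAP, receptor and regulator genes. Total RNA was sequenced from 2 untreated libraries and from 2 libraries of cells exposed to 50 µM genistein for 24 h. All 4 libraries came from wild-type MEF cells in the same high glucose medium with serum, although the genotype label of the exposed libraries only repeats the treatment. Nothing in the labels says that the 2 libraries of a group came from separate cultures, so the p-values measure the spread between these libraries, which may be technical. The number of embryos or clones behind the cell line, and whether the untreated cells received solvent, were not given in the labels. For other assays the study describes its untreated cells as given DMSO alone, without saying so for these libraries.

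Autophagy encloses cytoplasm in a double membrane, the autophagosome, and delivers it to the lysosome. The ULK kinase complex starts the process, and a lipid kinase complex built on Pik3c3 then makes the phosphoinositide that WIPI proteins bind. ATG2 and ATG9 proteins supply lipid, conjugation enzymes attach LC3 and GABARAP proteins to the growing membrane, and receptors tie cargo to them. In fibroblasts the pathway is best known as a response to starvation and to damaged organelles.

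The library totals ranged from 28591958 to 31464284 counts. The labelled cell type was checked on 10 fibroblast markers, of which 9 passed the filter on low counts. Col1a1, Col1a2, Col3a1, Vim and Fn1 were abundant, the lowest group mean of the 5 being 33712 normalised counts (Col3a1 after genistein), whereas Thy1 had 0 counts in every library. The epithelial marker Epcam and the macrophage marker Adgre1 had 0 counts too, and the leukocyte marker Ptprc had at most 1 count per library. Some markers moved with genistein all the same. The 6 blood and macrophage markers summed to 192 to 210 normalised counts per library without genistein and to 550 to 574 with it, mostly from Csf1r and Cd68. The 6 endothelial markers summed to 26.0 to 33.9 and to 99.4 to 100.2, and the 6 epithelial markers, nearly all of it Krt14, to 672 to 718 and to 109 to 118. The neural sum was 1215 to 1331 and 1052 to 1121, and the fibroblast sum was 430170 to 442819 and 403108 to 412667, with 1 of its genes (Fn1) higher and 7 lower. Mitochondrially encoded RNA took 1.96% to 2.07% of counts without and 3.14% to 3.30% with genistein, and repeats 12.0% to 12.5% and 13.6% to 14.6%. The part of these shifts in the results below was not tested.

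Most of the machinery was higher after genistein. A normalised count is a read count divided by the scaled library size and multiplied by the mean scaled size. On this scale the 36 genes summed to 50474 and 50270 without genistein and to 71277 and 70655 with it. All 36 passed the filter on low counts, the lowest raw count of any of them in a library being 63. At an adjusted p-value under 0.05, 26 genes rose, 3 fell and 7 did not pass (quasi-likelihood test of edgeR, Benjamini-Hochberg adjusted over 17358 genes and repeats). The background was high, since 33.5% of the 16240 genes tested rose and 38.2% fell by the same rule. With repeats included, 6289 of the 17358 entries rose and 6242 fell. The 26 rising genes are 72.2% of the 36, and the 3 falling genes are 8.33%. The median log2 fold change of the 36 genes was 0.35, against -0.03 over all genes tested. In 28 of the 36 genes both genistein libraries lay above both untreated libraries, as in 40.7% of all genes tested, and in 5 genes both lay below, as in 44.6%. In bulk RNA, a change in the share of cells that express a gene and a change in the RNA per cell cannot be told apart.

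Large changes were few in number. The study's thresholds ask, beyond the adjusted p-value, for a log2 fold change past 1 in either direction and for more than 100 normalised counts on average. Trp53inp2, Ulk1, Atg14 and Atg13, 4 of the 36 genes, passed them as higher. That is a larger share than among all genes tested, of which 3.92% did. No member passed the thresholds as lower, by edgeR or by DESeq2, where 4.16% of all genes tested did. The 3 members lower at an adjusted p-value under 0.05 (edgeR) did not reach the fold threshold. No further member was lower at an unadjusted p-value under 0.05 (edgeR). Atg13, at a log2 fold change of 1.07, lay closest above the fold threshold, and Map1lc3b and Wipi1, at 0.997 and 0.993, closest below it. Atg13 dropped out without untreated replicate 1 (0.98). Map1lc3b and Wipi1 came in without genistein replicate 2 (both 1.02) and with 2 other scalings, and Wipi1 without untreated replicate 2 (1.04).

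**Figure D1:**
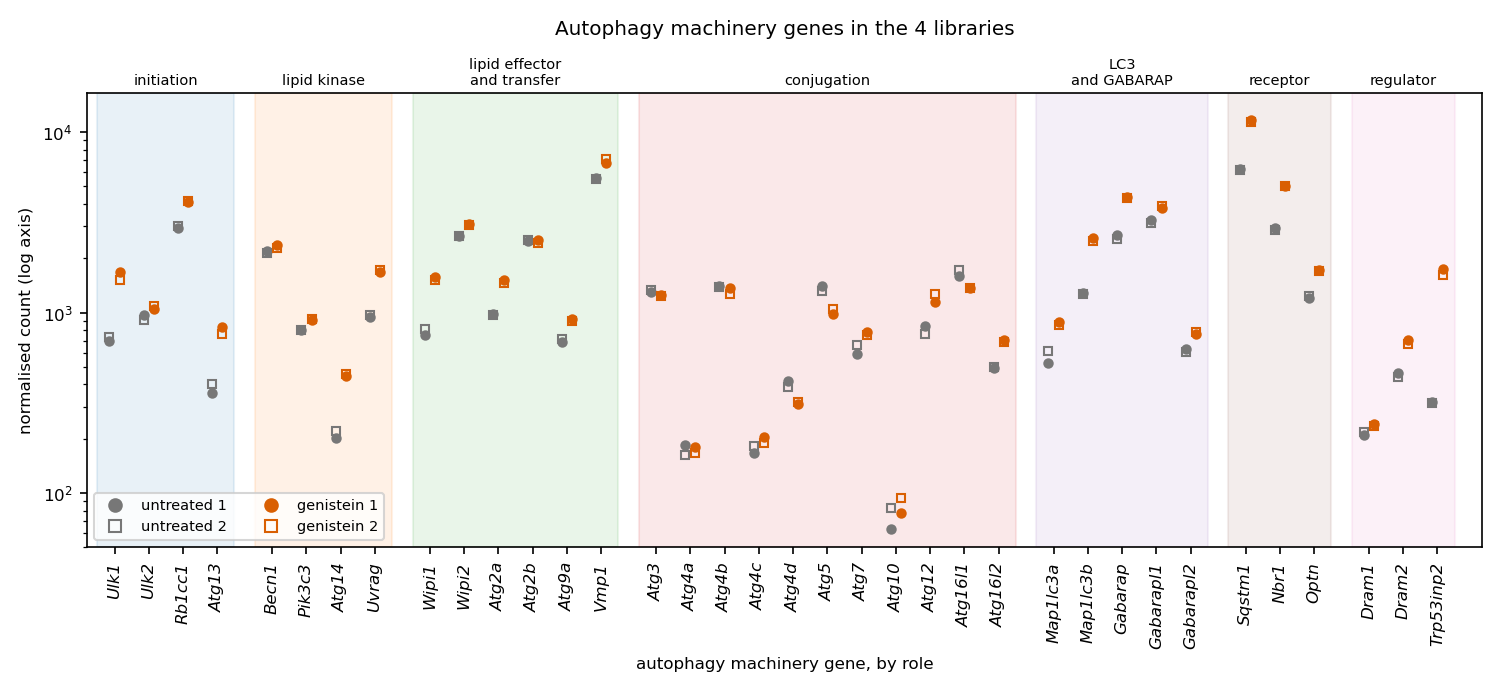
Normalised counts (log axis) of the 36 autophagy machinery genes, grouped by role, with 1 point for each of the 4 libraries (grey, untreated; orange, genistein; circles, replicate 1; squares, replicate 2). The orange points lie above the grey points for every initiation, lipid kinase, LC3 and GABARAP, receptor and regulator gene, and both orders occur among the conjugation genes.

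The ULK complex receives the signals of nutrient and energy sensors. All 4 initiation genes of the list rose, with a median log2 fold change of 0.77, whereas Atg101, a subunit of the complex outside the list, fell. Ulk1 (chromosome 5, 110784488 to 110810097, GRCm38), the kinase itself, had 699 and 737 normalised counts without genistein and 1681 and 1523 with it. The groups were far apart, and its level rose 2.23-fold (log2 fold change 1.16, SE 0.06, adjusted p = 3.9e-11, edgeR). Atg13 (chromosome 2, 91674618 to 91710576), the adaptor that holds the kinase in the complex, had 357 and 404 normalised counts against 837 and 760. It rose by a log2 fold change of 1.07 (SE 0.07, adjusted p = 1.8e-09, edgeR). Rb1cc1, the large scaffold of the complex, rose from 2950 and 3030 normalised counts to 4122 and 4128, and its replicates were the closest together of these 4 genes after genistein (log2 fold change 0.46, adjusted p = 3.5e-09, edgeR). Ulk2, the paralog of Ulk1, moved little, with 971 and 905 normalised counts against 1048 and 1087 (log2 fold change 0.19, SE 0.06, adjusted p = 0.0074, edgeR). Without untreated replicate 2 the value for Ulk2 was 0.13 and did not pass (adjusted p = 0.082, edgeR).

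All 4 lipid kinase genes of the list passed the test, with a median log2 fold change of 0.52. Changes were small for Pik3c3, the catalytic subunit, and Becn1, its regulatory partner, and larger for Atg14 and Uvrag, which direct the complex. Pik3r4, a further core subunit outside the list, rose by 0.46 on the log2 scale. Pik3c3 had 800.2 and 796 normalised counts in untreated cells and 907 and 926 after genistein, or 0.199 higher on the log2 scale (SE 0.06, adjusted p = 0.0043, edgeR). Becn1 had 2206 and 2138 against 2364 and 2285, the smallest change that passed among the 36 genes (log2 fold change 0.098, SE 0.04, adjusted p = 0.035, edgeR). Its call was lost without untreated replicate 2 (0.072, adjusted p = 0.195) or without genistein replicate 1 (0.078, adjusted p = 0.18), and with DESeq2 both Pik3c3 and Becn1 fell short (adjusted p = 0.065 for Pik3c3 and 0.21 for Becn1). Becn1 shares 43.9% of its exon sequence, on the opposite strand, with Cntd1, which had at most 14 raw counts in a library. Atg14 (chromosome 14, 47540893 to 47570649) directs the complex to the site where autophagosomes form. Its normalised counts were 202 and 221 in untreated cells and 444 and 460 after genistein, so that it rose 2.14-fold (log2 fold change 1.09, SE 0.09, adjusted p = 8.9e-09, edgeR). Uvrag, which replaces Atg14 in the complex that acts on endosomes and later steps, rose from 942 and 971 to 1683 and 1724 (log2 fold change 0.83, SE 0.05, adjusted p = 1.8e-10, edgeR).

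Of the 6 genes that read the lipid signal or move lipid into the new membrane, 5 rose and 1 did not pass, with a median log2 fold change of 0.35. Wipi1 (chromosome 11, 109573331 to 109611967), a phosphoinositide-binding propeller protein, had 751 and 808 normalised counts in untreated cells and 1578 and 1522 after genistein, a rise of 0.993 on the log2 scale (SE 0.05, adjusted p = 8.3e-11, edgeR). Its paralog Wipi2, which recruits the conjugation machinery, rose only from 2670 and 2642 to 3110 and 3043 (log2 fold change 0.21, adjusted p = 5.4e-05, edgeR). Atg2a, a lipid transfer protein, rose from 983 and 968 normalised counts to 1517 and 1455 (log2 fold change 0.61, adjusted p = 1.4e-08, edgeR). For its paralog Atg2b the libraries overlapped, at 2484 and 2527 against 2511 and 2425 (log2 fold change -0.021, SE 0.04, adjusted p = 0.62, edgeR). The membrane protein Atg9a, carried on small vesicles, rose by 0.38 on the log2 scale, and Vmp1, a lipid scramblase of the endoplasmic reticulum, by 0.31, from 5589 and 5518 to 6725 and 7057 normalised counts. Part of the Atg9a exon sequence (31.8%) also belongs to the transcript Gm29253 on the same strand, so the split of reads between them is uncertain.

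The conjugation enzymes had no common direction. Of 11 genes, 3 rose, 3 fell and 5 did not pass, and the median log2 fold change was -0.0035. All 3 falling genes among the 36 were in this group. Atg5 (chromosome 10, 44268358 to 44364291), the protein to which Atg12 is joined, had 1410 and 1312 normalised counts in untreated cells and 983 and 1050 after genistein, and fell by 0.42 on the log2 scale (SE 0.06, adjusted p = 3.5e-06, edgeR). Atg12 (chromosome 18, 46730144 to 46741580), the ubiquitin-like partner in the same conjugate, moved the other way, from 848 and 759 to 1144 and 1274 (log2 fold change 0.59, SE 0.07, adjusted p = 6.6e-07, edgeR). Atg16l1, which binds that conjugate and places it on the membrane, fell from 1586 and 1714 to 1365 and 1361 (log2 fold change -0.27, adjusted p = 9.1e-05, edgeR). Its paralog Atg16l2 rose from 493 and 502 to 708 and 688 (log2 fold change 0.49, adjusted p = 2.4e-06, edgeR). The transcripts for these partners thus changed in both directions in the same libraries.

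Among the enzymes that drive the reactions, Atg7, the activating enzyme of both conjugation systems, rose from 589 and 663 normalised counts to 783 and 756 (log2 fold change 0.30, SE 0.07, adjusted p = 0.00067, edgeR). The conjugating enzymes Atg3 and Atg10 did not pass, with log2 fold changes of -0.08 (SE 0.05) and 0.24 (SE 0.18). Atg10 was the lowest gene of the 36, at 62.9 and 82.6 normalised counts in untreated cells and 77.8 and 94.1 after genistein, and its depth leaves the widest error of all. The ATG4 proteases trim LC3 and GABARAP precursors and later release them from lipid. Atg4d was the only one of the 4 to pass, falling from 419 and 389 to 310 and 320 (log2 fold change -0.36, SE 0.08, adjusted p = 0.00085, edgeR). The log2 fold changes of Atg4a, Atg4b and Atg4c were -0.0035, -0.08 and 0.17 (SE 0.11, 0.05 and 0.11). The copy Atg4a-ps is 99.3% identical to Atg4a over 2115 bp and had 84 to 108 raw counts per library, beside 154 to 191 for Atg4a, so how reads were split between the 2 genes is uncertain. Atg4d overlaps Kri1 on the opposite strand over 19.3% of its exon sequence, and Kri1, with 1083 and 1000 raw counts without and 782 and 733 with genistein, was lower too.

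All 5 LC3 and GABARAP genes rose, with a median log2 fold change of 0.62. These small ubiquitin-like proteins are fixed to the autophagosome membrane and bind the receptors. Map1lc3b (chromosome 8, 121590361 to 121598760), the usual marker of autophagosomes, had 1283 and 1270 normalised counts in untreated cells and 2596 and 2499 after genistein (log2 fold change 0.997, SE 0.04, adjusted p = 3.4e-12, edgeR). Gabarap rose from 2677 and 2546 to 4361 and 4287 (log2 fold change 0.73, SE 0.04, adjusted p = 2.9e-11, edgeR). Map1lc3a rose from 526 and 613 to 889 and 853, by 0.62 on the log2 scale (SE 0.07, adjusted p = 6.7e-07, edgeR). The other GABARAP genes changed less. Gabarapl1 rose from 3245 and 3138 to 3796 and 3882 (log2 fold change 0.27, adjusted p = 3.9e-06, edgeR) and Gabarapl2 from 631 and 607 to 764 and 781 (log2 fold change 0.32, adjusted p = 0.00015, edgeR). Retrocopies of these genes could share reads with them. Gm6055, 99.7% identical to Map1lc3b over 378 bp, had 311 and 299 raw counts in untreated cells and 676 and 674 after genistein, beside 1284, 1200, 2768 and 2469 for Map1lc3b. Gm3724, 99.4% identical to Gabarapl2 over 349 bp, had 223 to 311 raw counts per library.

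The receptors for cargo rose together. Sqstm1 (chromosome 11, 50199366 to 50210827), which gathers ubiquitin-tagged protein and is itself consumed by autophagy, had 6233 and 6146 normalised counts in untreated cells and 11603 and 11371 after genistein. It was the gene of the 36 with the highest count in every library, and rose 1.86-fold (log2 fold change 0.89, SE 0.04, adjusted p = 1.1e-11, edgeR). Mrnip, on the opposite strand, overlaps 17.3% of the Sqstm1 exon sequence and had at most 217 raw counts. Nbr1, a related ubiquitin receptor that acts with Sqstm1, rose from 2929 and 2871 to 5014 and 5054 (log2 fold change 0.795, SE 0.03, adjusted p = 3.5e-12, edgeR). Optn, a receptor for damaged mitochondria and bacteria, rose from 1207 and 1239 to 1733 and 1701 (log2 fold change 0.49, SE 0.05, adjusted p = 6.1e-08, edgeR). Replicates lay close together in all 3, and no untreated library reached a genistein library. The same separation was seen in 28 of the 36 genes and in 40.7% of all genes tested.

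The largest change of the 36 genes was in a regulator. Trp53inp2 (chromosome 2, 155381059 to 155389850) encodes a nuclear cofactor that moves to autophagosomes and binds LC3 and GABARAP proteins. It had 320 and 317 normalised counts in untreated cells and 1748 and 1623 after genistein, a 5.30-fold rise (log2 fold change 2.41, SE 0.06, adjusted p = 1.5e-14, edgeR). The DRAM genes encode membrane proteins of the lysosome, and Dram1 is known as a target of p53. Dram1 did not pass, with 211 and 217 normalised counts against 242 and 235 (log2 fold change 0.16, SE 0.097, adjusted p = 0.16, edgeR). Dram2 rose from 461 and 437 to 702 and 674 (log2 fold change 0.62, SE 0.06, adjusted p = 2.9e-07, edgeR).

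**Figure D2:**
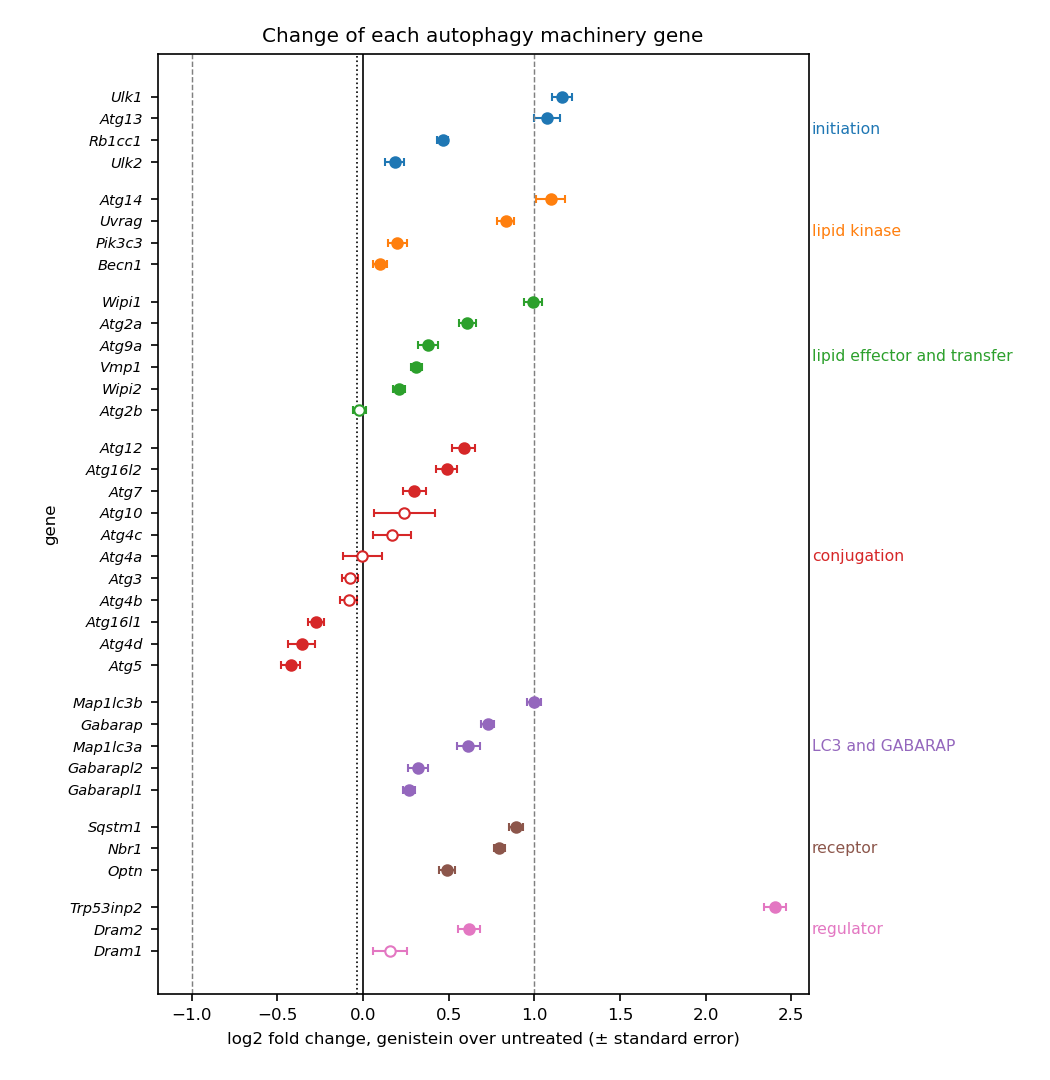
Log2 fold change of each of the 36 genes, genistein over untreated, with its standard error, coloured by role; filled points passed an adjusted p-value of 0.05 and open points did not. Dashed lines mark the study's fold threshold of 1 in either direction and the dotted line the median of all genes, -0.03; Trp53inp2 stands alone at 2.41 and only conjugation genes lie clearly left of 0.

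The promoters of the 4 genes past the study's thresholds are shown because these genes moved most, so that their windows can be read beside their values. RefSeq sequences (GRCm38.p6) were at hand for 30 of the 36 genes and cover 250 bases before to 50 bases after the RefSeq start, 5′ to 3′ on the strand of the gene. Rb1cc1, Pik3c3, Map1lc3a, Atg12, Atg16l1 and Becn1 had no entry. Capitals mark a match to 1 of the 5 motifs searched. The windows are, in order, chr2:155381606-155381905 (plus strand), chr5:110810032-110810331 (minus strand), chr14:47568385-47568684 (minus strand) and chr2:91710543-91710842 (minus strand). The RefSeq starts of Trp53inp2 and Atg14 lie inside the gene bodies given above, which begin at other starts.
Trp53inp2: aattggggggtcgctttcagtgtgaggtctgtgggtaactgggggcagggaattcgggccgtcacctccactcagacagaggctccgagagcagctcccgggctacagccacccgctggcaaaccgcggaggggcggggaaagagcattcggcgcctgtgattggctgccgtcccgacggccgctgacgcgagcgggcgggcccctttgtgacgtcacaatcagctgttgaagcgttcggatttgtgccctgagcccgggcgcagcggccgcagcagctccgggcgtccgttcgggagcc
Ulk1: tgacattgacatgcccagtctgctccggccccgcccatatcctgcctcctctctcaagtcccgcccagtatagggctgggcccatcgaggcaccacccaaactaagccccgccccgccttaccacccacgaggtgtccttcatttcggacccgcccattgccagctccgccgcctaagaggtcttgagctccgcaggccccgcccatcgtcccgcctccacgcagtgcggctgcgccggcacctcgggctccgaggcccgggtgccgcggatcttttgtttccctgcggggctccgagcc
Atg14: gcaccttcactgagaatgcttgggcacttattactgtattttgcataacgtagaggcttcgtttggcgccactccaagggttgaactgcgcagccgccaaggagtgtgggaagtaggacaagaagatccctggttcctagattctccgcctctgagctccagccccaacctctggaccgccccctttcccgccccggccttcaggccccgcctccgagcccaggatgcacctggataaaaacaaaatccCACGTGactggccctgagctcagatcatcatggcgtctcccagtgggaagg
Atg13: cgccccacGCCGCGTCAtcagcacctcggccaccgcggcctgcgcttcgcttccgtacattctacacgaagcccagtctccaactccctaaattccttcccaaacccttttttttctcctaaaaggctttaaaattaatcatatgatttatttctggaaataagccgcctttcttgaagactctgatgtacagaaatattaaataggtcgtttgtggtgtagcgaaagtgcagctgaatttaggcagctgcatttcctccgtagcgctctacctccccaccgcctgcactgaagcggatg

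Only 2 of these 4 windows held a match. The Atg14 window has the E-box CACGTG, read by factors of the TFEB and MYC families, beginning 1 base before the start. The Atg13 window has the antioxidant response core TGACNNNGC, on the other strand, beginning 242 bases before the start. Trp53inp2 and Ulk1 had no match in these windows, which says only that these letters are not there. Over the 35 windows of the 30 genes (several genes have more than 1 start), both strands were searched. CACGTG was in 4 windows (11.4%, against 7.15% of 32851 promoters), those of Atg3, Atg5, Atg7 and Atg14. TCACGTGA, which contains CACGTG, was in 1 (2.86% against 0.974%), that of Atg3. TGACNNNGC was in 6 (17.1% against 12.4%), from Atg13, Map1lc3b, Ulk2 and 3 windows of Vmp1. The p53 half-site of 10 bases was in 2 (5.71% against 8.36%), from Atg4a and Vmp1, and TGATGNAA, the core read by ATF4, in 0 (against 3.97%). Of the genes with CACGTG, Atg14 and Atg7 rose, Atg5 fell and Atg3 did not pass, so the match did not go with 1 direction.

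Paralogs were then set side by side per kilobase of exon, since counts of genes of different length cannot be compared directly. In all 8 pairs compared, the ratio of the paralogs lay on the same side in both genistein libraries relative to both untreated libraries. Such separation was common for single genes, with 40.7% of all genes tested above and 44.6% below, and its share over other gene pairs was not computed. Gabarapl1 is in 2 of the 8 pairs, and its log2 fold change barely differed from that of Gabarapl2 (-0.053, SE 0.069). Exact permutation of 2 against 2 libraries gives no two-sided p-value under 0.333, so these ratios are given as descriptions. Ulk1 made up 39.9% and 42.9% of the ULK pair in untreated cells and 59.6% and 56.3% after genistein. Thus Ulk2 was the more abundant kinase transcript per kilobase before exposure and Ulk1 after it. Wipi1 went from 40.2% and 42.2% of its pair to 54.8% and 54.5%, and Atg2a from 40.9% and 40.1% to 51.4% and 51.2%. Per kilobase, the order of the paralogs was reversed in these 3 families. A reversal can arise only where the paralog lower per kilobase in untreated cells has the larger log2 fold change, so that is no separate result. In normalised counts undivided by length, the order was reversed for the ULK pair alone. Wipi2 and Atg2b stayed above Wipi1 and Atg2a after genistein, with group means of 3076.5 against 1550 and 2468 against 1486. The reversal in the WIPI and ATG2 pairs thus depends on the exon lengths used. The differences of the log2 fold changes were 0.97 (SE 0.08) for Ulk1 over Ulk2, 0.78 (SE 0.06) for Wipi1 over Wipi2 and 0.63 (SE 0.06) for Atg2a over Atg2b.

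The ATG16L and DRAM pairs shifted without a change of order. Atg16l1 fell from 73.9% and 75.0% of its pair to 62.9% and 63.5%, a difference in log2 fold change of -0.76 (SE 0.08) relative to Atg16l2. Dram2 went from 63.9% and 62.0% of the DRAM pair to 70.2% and 69.9%. Within the LC3 and GABARAP family, Gabarapl1 and Gabarap together held over 70% of the pool in every library. Gabarapl1 was the first of the 5 in untreated cells, at 40.8% and 40.1%, and fell behind Gabarap after genistein, at 33.2% and 34.2% against 41.7% and 41.2%. Map1lc3b held only 4.32% and 4.35% of the pool per kilobase in untreated cells and 6.08% and 5.89% after genistein, although its log2 fold change was the largest of the family. Gabarapl2, at 6.87% and 6.71%, was above it before exposure and close to it after, at 5.79% and 5.95%. The exon sequence of Map1lc3b, joined over all transcripts, is 7517 bp long, which lowers the level of Map1lc3b per kilobase. The pool as a whole was 1.44 times larger after genistein, from 3952 and 3889 normalised counts per kilobase to 5677 and 5644. Among the ATG4 genes, Atg4c went from 14.4% and 16.1% to 18.1% and 17.8% and Atg4d from 16.6% and 15.8% to 12.7% and 13.9%. Per kilobase, Atg4c was thus above Atg4d in both genistein libraries, though not in normalised counts undivided by length. The summed ATG4 level changed little beside the LC3 and GABARAP pool, with a ratio of 0.954, and the summed ATG16L level had a ratio of 0.973.

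**Figure D3:**
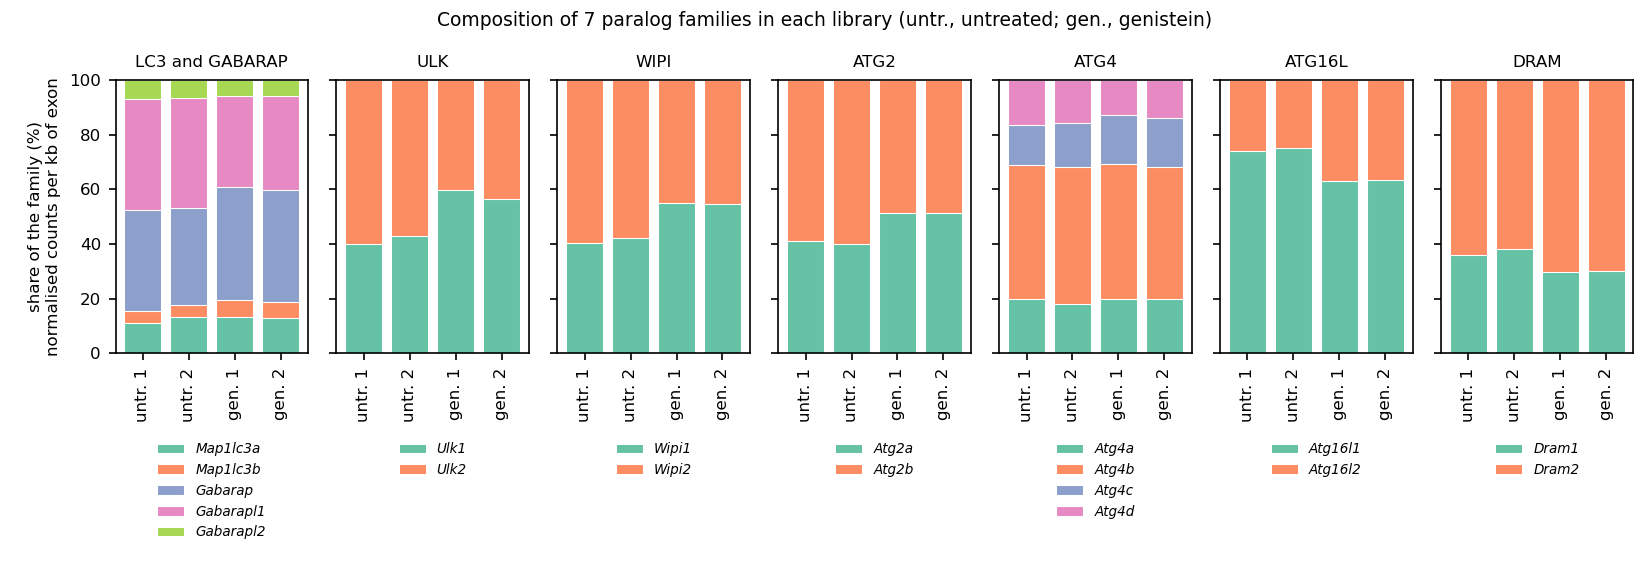
Share of each paralog in its family, in percent of the summed normalised counts per kilobase of exon, in the 4 libraries (untreated 1 and 2, genistein 1 and 2). Ulk1, Wipi1 and Atg2a grow from about 40% to over 50% of their pairs, and the ATG4 shares move least.

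Per kilobase, the 36 genes spanned a wide range. In untreated cells Sqstm1, Gabarapl1, Vmp1 and Gabarap led with 1844, 1585, 1438 and 1416 normalised counts per kilobase, well above Atg5, the next, with 578. Atg10 and Atg14 were lowest, with 42.3 and 48.9. After genistein Sqstm1 was at 3423 and Gabarap, at 2345, was above Gabarapl1, at 1907. Trp53inp2 moved from 60.5 to 321, from among the scarce transcripts to near the level of Wipi1 (352) and Map1lc3b (339).

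Genes of the pathway outside the 36 were read from 5 further lists of 69 genes, of which 68 passed the filter on low counts. Of these, 39 rose, 15 fell and 14 did not pass, with a median log2 fold change of 0.24. The share that rose lies between that of the 36 genes and that of all genes. Genes of autophagosome fusion with the lysosome came closest to the core genes, with 13 of 17 higher and 2 lower and a median of 0.42. The lysosomal membrane protein Lamp2 rose by 0.91 on the log2 scale (adjusted p = 1.8e-11, edgeR), the tethering subunit Vps41 by 0.71 and Tecpr1, which links autophagosomes to lysosomes, by 0.67.

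Among the 11 other initiation and nucleation genes, 4 rose, 4 fell and 3 did not pass. That is close to the shares over all genes tested, of which 33.5% rose and 38.2% fell. Trp53inp1, the p53-induced paralog of Trp53inp2, had 741 and 723 normalised counts in untreated cells and 10799 and 10882 after genistein (log2 fold change 3.89, SE 0.04, adjusted p = 2.0e-19, edgeR). Both genes of this pair were thus strongly higher, Trp53inp1 the more so. Zfyve1, which marks the membrane platform where autophagosomes form, rose by 1.56 and the WIPI relative Wdr45 by 0.92. Atg101, the remaining subunit of the ULK complex, fell by 0.24 on the log2 scale (adjusted p = 0.0017, edgeR), against the rise of the 4 initiation genes above. Pik3r4, the remaining core subunit of the lipid kinase, rose by 0.46 (adjusted p = 1.0e-06, edgeR). Both were named after their values were seen, because they complete these complexes.

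The AMPK and mTORC1 genes, which sense energy and nutrients upstream of the ULK complex, were mixed, with 10 of 20 tested genes higher and 6 lower. By the same rule, 33.5% of all genes tested rose and 38.2% fell, which applies to the other lists here too. The stress-induced mTORC1 inhibitors Sesn2, Ddit4 and Sesn3 changed most. Sesn2 had 480.5 and 444 normalised counts against 1973 and 1977 (log2 fold change 2.09, SE 0.06, adjusted p = 1.5e-14, edgeR). The values for Ddit4 and Sesn3 were 2.05 and 1.54. Of 5 transcription factors known to act on autophagy genes, 2 rose, 1 fell and 2 did not pass. Foxo1 and Foxo3 rose by 1.33 and 1.21 on the log2 scale. Tfeb, a master regulator of lysosomal genes, fell from 399.6 and 412 normalised counts to 251 and 233 (log2 fold change -0.74, SE 0.09, adjusted p = 8.3e-07, edgeR). Tfe3, with more counts than Tfeb, did not pass, at 1263 and 1233 against 1315 and 1247 (log2 fold change 0.04, adjusted p = 0.51, edgeR). Nor did Mitf, a scarce transcript (log2 fold change -0.42, adjusted p = 0.093, edgeR). Of 15 other receptors, 10 rose and 2 fell. Calcoco1 and Ccpg1, receptors for the endoplasmic reticulum, rose by 1.73 and 1.24, while the mitochondrial protein Phb2 fell by 0.94 on the log2 scale, from 7241 and 6963 to 3620 and 3772 normalised counts.

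**Figure D4:**
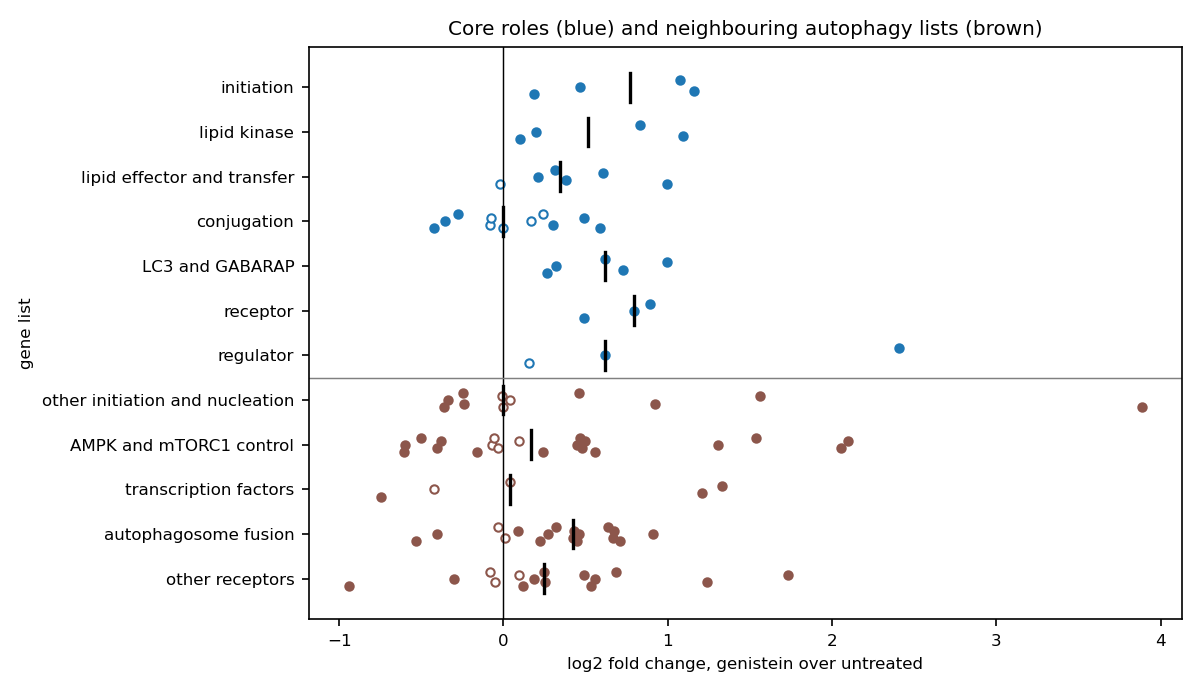
Log2 fold change (genistein over untreated) of the tested genes in the 7 roles (blue) and the 5 further lists (brown); black bars are medians, and filled points passed an adjusted p-value of 0.05. The medians run from -0.0035 for conjugation to 0.795 for receptors among the roles, and the right-most point, at 3.89, is Trp53inp1.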

How the data were processed

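Total RNA libraries (ribosomal RNA depleted, stranded kit, paired ends) were trimmed by the authors with Trim Galore, aligned with STAR to mm10 and counted with TEtranscripts over GENCODE genes and repeat subfamilies. What the authors deposited are whole-number counts per library, neither normalised nor pooled. The counter's strand setting was not given in the sources used here, so genes with overlapping or antisense partners are uncertain. Retrocopies were found with blastn 2.17.0 with a minimum identity of 95% and a minimum length of 150 bp.

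Of 49383 entries, 47937 were genes and 1445 repeats; 1 entry named neither, held 0.00208% to 0.00314% of the counts and was left out. Symbols, coordinates and exon lengths came from GENCODE M21 on GRCm38, the assembly of mm10, and matched 47310 genes. Exon length is the union over all transcripts, so levels per kilobase are approximate.

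The whole table was filtered with filterByExpr, scaled by trimmed means of M-values (TMM) and tested with edgeR 4.0.16 in R 4.3.3 (quasi-likelihood test, group as the only term). Standard errors are the log2 fold change divided by the square root of F. Members and lists were chosen with earlier results of these data known, so their counts are descriptions and were given no set test. Background shares are over the genes tested. All 36 members were named, with up to 3 genes of each further list by absolute log2 fold change among those that passed. Atg101, Pik3r4, Tfe3 and Mitf were named beyond this rule. Alternatives covered scaling, filtering, DESeq2 1.42.0, a replicate block, thresholds and leaving out each library.

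Counts simulated for this comparison over 17036 entries gave calls for 65 of 100 entries changed 1.5-fold, 96 of 99 changed 3-fold and 18 of 16837 unchanged entries. Few entries were changed in the simulation, whereas 6289 of the 17358 real entries rose and 6242 fell. Its dispersions came from the same 4 libraries. These figures are therefore not error rates of the calls above.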

Additional observations from a re-analysis of the deposited data

How the results depend on the processing

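Across the 10 alternative fits, the number of members that rose lay from 23 (DESeq2) to 27 (library totals), beside 26, and 3 fell in each of these fits. Of the 36 genes, 30 kept their direction and their side of the adjusted p-value threshold throughout, 23 of them as higher and 3 as lower. Pik3c3, Ulk2 and Becn1 fell short with DESeq2, so that 2 lipid kinase genes rose in place of 4. Becn1 also fell short with RLE factors, no filter and the replicate block, and Dram1 passed with library totals alone. Leaving out each library in turn gave 24 to 26 higher members, and 3 to 6 past the study's thresholds. Atg13 dropped out without untreated replicate 1, at 0.98, and without genistein replicate 2 both Map1lc3b, at 1.02, and Wipi1, at 1.02, came in. Wipi1 also came in without untreated replicate 2, at 1.04. A mean count over 1000 left 2 higher members by construction, and a test against a 1.2-fold change, with no other fold threshold, gave 18 higher and 1 lower.

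Genes near 0 reversed sign without passing. Atg2b was 0.022 with TMM from genes alone and 0.048 with library totals, and ran from -0.042 to 0.0043 with each library left out. Atg4a was 0.040 and 0.066 under those scalings and ran from -0.090 to 0.083. The cause was not tested. With the replicate block, 25 members rose and 3 fell. Libraries sharing a number did not deviate together (r = -0.026, 2 pairs), so a shared number is no evidence of pairing. Of the further lists, no count moved by more than 1.5 times in these fits.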
